A study of Homo sapiens with 6 samples.

Results

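The expression of 9 enzymes of the urea cycle and of arginine and proline metabolism was examined in OVCAR3 cells after NUF2 knockdown. The enzymes are CPS1, OTC, ASS1, ASL, ARG2, OAT, ALDH18A1, PYCR1 and PRODH. Their rows were selected by gene name from the 19973 genes of the deposited table, and all 9 names were found. The names were chosen on earlier results of the same shNUF2 and shNC libraries, so that the read counts behind this contrast took part in the choice. The differences of these 9 enzymes between the groups are therefore described here without a test.

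OVCAR3 is an established human epithelial ovarian cancer line. RNA was sequenced from cells given shNC, a control hairpin (genotype WT in the labels), and from cells given shNUF2, a hairpin against the kinetochore gene NUF2 (genotype NUF2 knockdown), with 3 libraries in each group. Both groups were selected with puromycin to obtain stable lines, and only 1 hairpin against NUF2 was used. The comparison asks which genes differ in expression after NUF2 knockdown. Neither the labels nor the methods state whether the libraries of a group came from separate cultures, so that p-values measure the spread between these libraries, which may be technical.

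In the urea cycle, CPS1 joins ammonia and bicarbonate to carbamoyl phosphate in the mitochondrion, and OTC transfers the carbamoyl group to ornithine to give citrulline. ASS1 condenses citrulline with aspartate, ASL splits the product into arginine and fumarate, and an arginase releases urea and returns ornithine. OAT links ornithine to pyrroline-5-carboxylate, which ALDH18A1 also makes from glutamate, PYCR1 reduces to proline and PRODH forms again from proline. The complete cycle is known from the liver, and many other cells use only parts of it.

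The total counts per library ranged from 13057534 to 16995452. NUF2 itself had 63.5, 68.6 and 63.5 normalized counts with shNC and 20.8, 22.3 and 25.5 with shNUF2. Normalized counts are CPM, the counts scaled to a common library size with edgeR's TMM factors. Pairs of libraries of 1 group differed by more than sampling noise, with a chi-square of 2.64 to 4.31 per degree of freedom. Genes of the mitochondrial genome took 3.57% to 3.85% of the counts with shNC and 2.38% to 2.63% with shNUF2, and the part of this difference in the results was not tested. Of 7 markers set for an ovarian carcinoma line, WFDC2 had at most 1 read in any library and CDH1 had 9 to 33 reads, whereas PAX8, MUC16, EPCAM, KRT8 and KRT18 had more than 10 reads in every library. The summed CPM of the 7 markers lay from 496 to 526 with shNC and from 874 to 930 with shNUF2, most of it KRT8 (mean 337 and 692 CPM). MUC16 went the other way, with means of 48.6 and 28.9 CPM, and CDH1 overlapped between the groups.

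CPS1 and ASS1 had the largest fitted log2 differences of the 9 enzymes with all 6 libraries. The reference sequences at ASS1 start 2 and CPS1 starts 1 and 2 are shown, together with the sequence of ALDH18A1, which differed least. ASS1 start 1 and CPS1 start 3 are not printed. The part of these sequences in the differences was not tested. Each sequence runs from 250 bases before to 50 bases after an annotated start (RefSeq, GRCh38.p14, strand of the gene). Capitals mark matches to the E-box CACGTG, the GC box GGGCGG, the CCAAT box CCAAT and the TATA box TATAAA on either strand. The ASS1 window is chr9:130444711-130445010 on the plus strand, and its start is the first base of ASS1 in the deposited table. The CPS1 windows are chr2:210477435-210477734 and chr2:210519468-210519767 on the plus strand. The ALDH18A1 window is chr10:95656662-95656961 on the minus strand.
ASS1 start 2: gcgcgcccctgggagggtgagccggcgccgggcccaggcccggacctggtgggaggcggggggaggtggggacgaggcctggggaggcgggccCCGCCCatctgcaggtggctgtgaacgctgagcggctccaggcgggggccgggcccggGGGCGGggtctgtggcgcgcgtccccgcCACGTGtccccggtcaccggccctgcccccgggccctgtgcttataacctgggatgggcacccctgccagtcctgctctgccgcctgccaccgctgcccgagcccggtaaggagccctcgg
CPS1 start 1: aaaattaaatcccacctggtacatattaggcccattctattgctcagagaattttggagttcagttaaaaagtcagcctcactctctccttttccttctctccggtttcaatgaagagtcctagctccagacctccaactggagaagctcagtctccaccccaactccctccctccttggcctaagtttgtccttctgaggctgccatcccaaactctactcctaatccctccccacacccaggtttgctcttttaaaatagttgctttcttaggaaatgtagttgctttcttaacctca
CPS1 start 2: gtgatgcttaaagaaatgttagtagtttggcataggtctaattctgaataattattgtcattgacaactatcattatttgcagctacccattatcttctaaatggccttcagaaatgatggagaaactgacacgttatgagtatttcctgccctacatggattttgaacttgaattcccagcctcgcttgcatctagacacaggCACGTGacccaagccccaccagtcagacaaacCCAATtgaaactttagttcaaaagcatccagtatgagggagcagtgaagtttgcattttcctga
ALDH18A1: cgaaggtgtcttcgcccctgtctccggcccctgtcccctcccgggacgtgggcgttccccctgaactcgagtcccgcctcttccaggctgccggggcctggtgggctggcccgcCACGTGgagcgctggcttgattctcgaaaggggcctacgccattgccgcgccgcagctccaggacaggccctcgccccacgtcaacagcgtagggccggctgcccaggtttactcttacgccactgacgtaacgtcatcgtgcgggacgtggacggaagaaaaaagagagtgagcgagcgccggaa
The ASS1 sequence contained an E-box at position -71 from the start and 2 GC boxes, and its GC content was 78.3%. The first CPS1 sequence contained 0 of these motifs and had a GC content of 45.3%, against a median of 58.7% over 35116 promoters of this length. The second CPS1 sequence held an E-box at -46 and a CCAAT box at -14, and ALDH18A1 held an E-box at -136.

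Promoters were given for 7 of the 9 enzymes, with 10 starts in all, and PYCR1 and PRODH had no entry. An E-box was found in 3 of the 10 windows, those of CPS1 start 2, ASS1 start 2 and ALDH18A1, and 7.26% of all promoters contained one. GC boxes were found for ASS1, ASL, ARG2 and OAT, which is a motif of 45.0% of all promoters. The CCAAT box was found for CPS1, ASL, ARG2 and OAT (34.6% of all promoters), and the TATA box for OTC alone, at -192 (11.5% of all promoters). The core of the C/EBP-ATF response element, TGATGNAA, which 3.62% of all promoters contain, had 0 matches in the 10 windows. The other windows of CPS1 and ASS1 held 0 E-boxes. The counts are per gene and do not show which start was used.

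**Figure D1:**
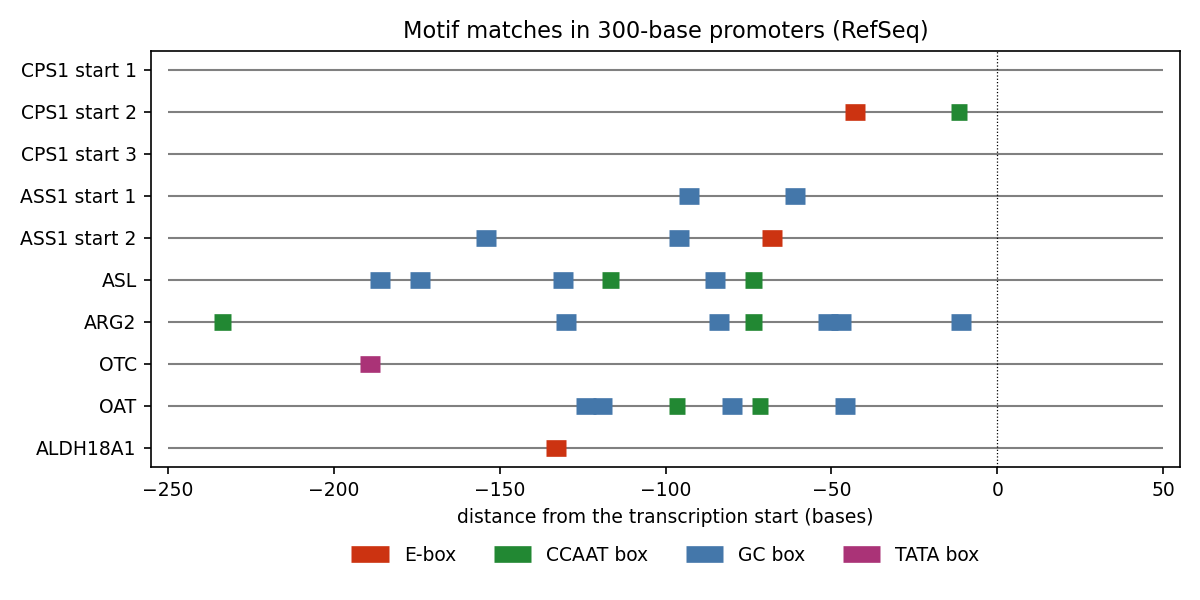
Matches to 4 motifs in the 10 promoter windows of 7 enzymes, plotted by distance from the annotated start in bases, with 1 line per start and 1 coloured block per match on either strand. ASL, ARG2 and OAT carry several GC and CCAAT boxes, whereas CPS1 starts 1 and 3 carry 0 matches.

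The first step of the cycle was clearly expressed. CPS1 (ENSG00000021826, chromosome 2 from 210477682 to 210679107, plus strand, GRCh38.p13) counted 20679, 24445 and 25483 reads under shNC, against 4807, 4674 and 5528 under shNUF2. The mean was 1489 ± 38.0 CPM in shNC cells and 361 ± 5.64 CPM in shNUF2 cells (SD, n = 3 each). All 3 shNUF2 libraries lay far below the shNC libraries, and the spread within each group was small. The log2 fold change was -2.04 (standard error 0.04), which is a 4.12-fold lower level. Leaving out single libraries gave -2.06 to -2.02. No stretch of 50 bases of its longest coding transcript occurs in a transcript of another gene (0 of 5772 stretches, GENCODE release 29).

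OTC, the next enzyme of the cycle, had 0 reads in all 6 libraries. A count of 0 allows up to 3 reads in a library, so that OTC was not detected at this depth in either group. It did not enter the fit. Transcripts of the steps before and after OTC were thus detected, and that of OTC was not.

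ASS1, which makes argininosuccinate, was the most abundant of the 9 transcripts. ASS1 (ENSG00000130707, chromosome 9 from 130444961 to 130501274, plus strand) counted 39659, 45565 and 48700 reads under shNC, against 8936, 8866 and 10583 under shNUF2. The mean was 2824 ± 31.4 CPM in shNC cells and 683 ± 20.4 CPM in shNUF2 cells (SD, n = 3 each). The groups did not overlap and the libraries within a group were close together. The log2 fold change was -2.05 (standard error 0.04), a 4.13-fold lower level. ASS1 has 11 pseudogenes with its name in GENCODE release 29, and 9.15% of the 50-base stretches of its longest coding transcript also occur in transcripts of other genes, so that the assignment of a part of its reads is uncertain.

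ASL, the following enzyme, differed far less. Its normalized counts were 58.8, 52.3 and 51.9 CPM with shNC and 51.1, 46.9 and 41.2 CPM with shNUF2. The highest shNUF2 library lay just below the lowest shNC library. The log2 fold change was -0.23 (standard error 0.08). Of its longest coding transcript, 24.5% is shared with ENSG00000249319, a readthrough gene on the same strand that the table lists at 0 reads in every library. The level of ASL relative to other genes is uncertain to this extent.

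ARG2, the mitochondrial arginase, had few reads. It counted 66, 53 and 48 reads under shNC, against 97, 61 and 74 under shNUF2. In CPM these were 4.64, 3.32 and 2.79 against 7.20, 4.69 and 4.92, so that the lowest shNUF2 library was barely above the highest shNC library. As FPKM, which scales counts to gene length and to the library total without the TMM factor, the same libraries both rounded to 2.05 and the groups overlapped. The log2 fold change was 0.66 (standard error 0.23), and 0.44 to 0.87 with each library left out. Of the exonic bases of ARG2, 37.4% overlap exons of VTI1B on the opposite strand. VTI1B counted 294, 321 and 322 reads under shNC, against 207, 192 and 243 under shNUF2. The strand setting of the counting is not given in the sources used here, and without it reads of ARG2 and VTI1B on the overlap cannot be told apart.

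**Figure D2:**
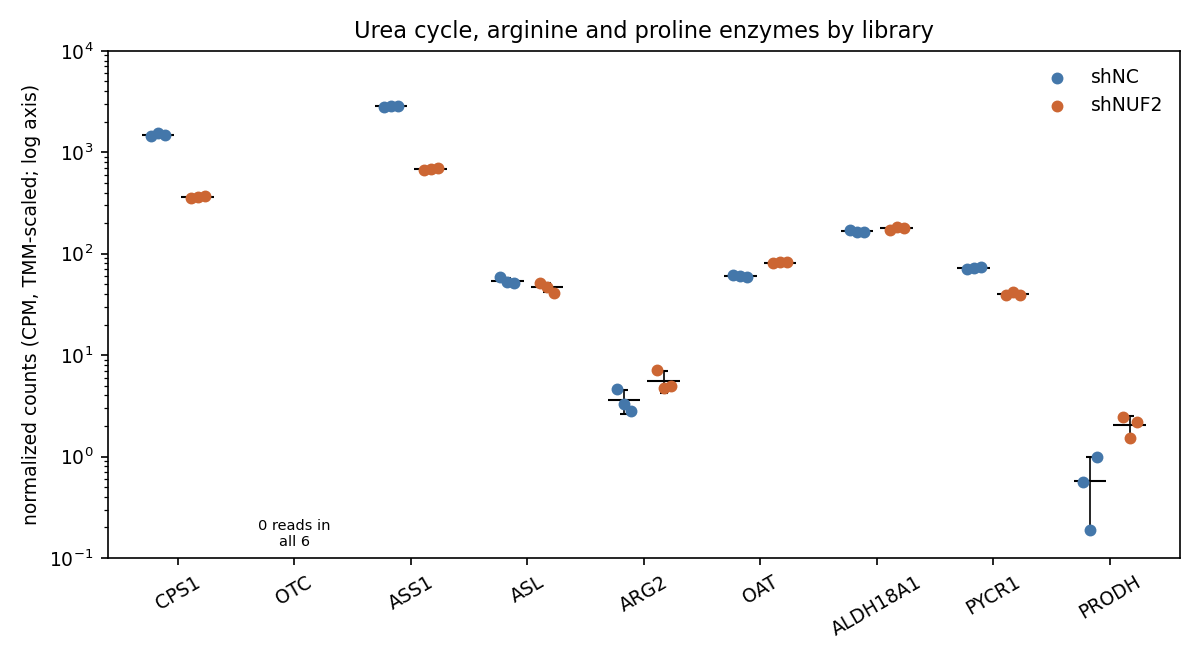
Normalized counts (CPM, log axis) of the 9 enzymes in each library of shNC (blue) and shNUF2 (orange), with 1 point per library and bars for the mean ± SD of 3 libraries. CPS1 and ASS1 have means of 1489 and 2824 CPM in shNC and 361 and 683 CPM in shNUF2, whereas ALDH18A1 and ASL stay close to their shNC level and OTC has 0 reads.

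OAT, the link from ornithine to proline, was higher with shNUF2. Its normalized counts were 61.3, 59.7 and 59.2 CPM with shNC and 80.3, 82.0 and 81.9 CPM with shNUF2. The libraries of each group were nearly equal and the groups did not overlap. This gave a log2 fold change of 0.44 (standard error 0.05), a 1.36-fold higher level. Stretches shared with other genes made up 5.35% of its longest coding transcript.

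ALDH18A1, which makes the proline precursor from glutamate, was nearly level. It had 169.5, 164.8 and 163.6 CPM in shNC cells, against 172.2, 181.3 and 179.4 CPM in shNUF2 cells. The groups were separated by less than 3 CPM, and they overlapped as FPKM, with 45.4 in the highest shNC library and 44.8 in the lowest shNUF2 library. The log2 fold change was 0.10 (standard error 0.04). None of its transcript is shared with another gene (0 of 3310 stretches of 50 bases).

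PYCR1, the mitochondrial enzyme that completes proline synthesis, was lower with shNUF2. It counted 997, 1151 and 1271 reads under shNC, against 533, 543 and 588 under shNUF2. The mean was 72.0 ± 1.88 CPM in shNC cells and 40.1 ± 1.44 CPM in shNUF2 cells (SD, n = 3 each), and the groups were far apart compared with the spread within them. Its log2 fold change was -0.84 (standard error 0.06), a 1.80-fold lower level. Its exons overlap an antisense gene by 15.6% and MYADML2, which had at most 2 reads, by 14.1% of their bases.

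PRODH, the first enzyme of proline breakdown, was barely detected. It counted 8, 3 and 17 reads under shNC, against 33, 20 and 33 under shNUF2. All shNUF2 libraries lay above all shNC libraries, but at most 33 reads stand behind any value. The ratio of the summed and scaled reads was 3.51. Its log2 fold change was 1.80 (standard error 0.42), and with single libraries left out it ranged from 1.38 (without shNC replicate 2) to 2.46 (without shNC replicate 3). With limma on log2 of FPKM plus 0.1 or 1 it was 1.02 or 0.21. Only 1 of the shNC libraries and all 3 shNUF2 libraries reached the minimum used for testing, so that PRODH entered the fit through the group in which it was higher. The table also lists ENSG00000277196, a copy of proline dehydrogenase 1 on a scaffold outside the assembled chromosomes, with 53, 42 and 49 reads under shNC, against 99, 68 and 151 under shNUF2. This copy was singled out after its values were seen. It had more reads than PRODH in every library and the same direction. Reads of the copies cannot be told apart where their sequences match, and the extent of that match was not measured. Of the 50-base stretches of the longest coding transcript of PRODH, 31.5% also occur in transcripts of other genes. The exons of PRODH overlap DGCR6, which had at most 1 read, on the opposite strand by 7.69% of their bases.

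In all, 8 of the 9 enzymes passed the filter on low counts. DEGs (differentially expressed genes) had a Benjamini-Hochberg adjusted p under 0.05 and a log2 fold change beyond 1 in either direction. The fitted log2 fold change lay above 1 for PRODH and below -1 for CPS1 and ASS1. Over all 12874 genes tested, 9.35% were called higher and 4.14% lower by the DEG limits. No call is made for the enzymes, since they were chosen on this contrast and PRODH entered the fit through the group in which it was higher. The shNUF2 values were all higher than the shNC values in 4 enzymes and all lower in 4, which was so for 35.2% and 35.4% of all genes. Nothing is read from these counts, because the contrast took part in the choice of the enzymes.

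Levels of different genes were compared as FPKM. With shNC the order was ASS1 (947 ± 15.3), CPS1 (137 ± 4.20), ALDH18A1 (44.7 ± 0.68), PYCR1 (25.3 ± 0.729), OAT (17.9 ± 0.278), ASL (9.11 ± 0.615), ARG2 (1.59 ± 0.416) and PRODH (0.0668 ± 0.0461), each as mean FPKM ± SD (n = 3). With shNUF2 the mean FPKM was 223 ± 7.98 for ASS1, 46.6 ± 1.68 for ALDH18A1, 32.4 ± 0.674 for CPS1, 23.7 ± 0.495 for OAT, 13.7 ± 0.593 for PYCR1, 7.59 ± 0.776 for ASL, 2.42 ± 0.574 for ARG2 and 0.231 ± 0.0508 for PRODH (SD, n = 3). Neighbours in either order were further apart than their SD. CPS1 was thus above ALDH18A1 with shNC and below it with shNUF2, and PYCR1 and OAT exchanged places in the same way. ASS1 ranked from 14 to 16 among all 19973 genes by FPKM in the shNC libraries and from 103 to 111 in the shNUF2 libraries. CPS1 ranked from 176 to 193 with shNC and from 1230 to 1302 with shNUF2. ASS1 and CPS1 together took 0.427% to 0.446% of all counted reads with shNC and 0.0996% to 0.106% with shNUF2.

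Ratios within a library do not depend on the scaling between libraries. The FPKM of CPS1 relative to that of ASS1 was 0.144 ± 0.00225 in shNC cells and 0.145 ± 0.00219 in shNUF2 cells (SD, n = 3 each). In single libraries this ratio was 0.143, 0.147 and 0.143 with shNC and 0.147, 0.144 and 0.143 with shNUF2, so that the groups overlapped fully. The ratio of ASS1 to ASL, the enzymes that together make arginine from citrulline, ranged from 94.8 to 109 with shNC and from 25.9 to 34.1 with shNUF2. The ratio of PYCR1 to ALDH18A1 was 0.566 ± 0.0248 with shNC and 0.294 ± 0.00913 with shNUF2 (SD, n = 3 each). The ratio of OAT to ARG2 overlapped between the groups, at 8.91, 12.1 and 14.3 with shNC and 7.52, 11.8 and 11.2 with shNUF2.

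**Figure D3:**
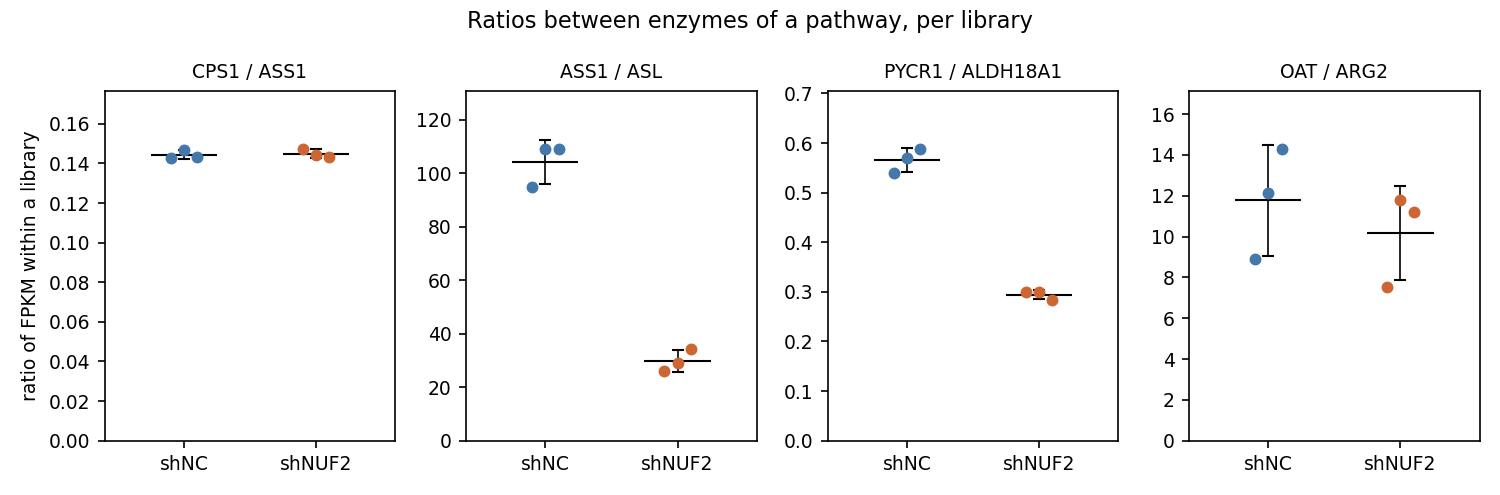
FPKM ratios between enzymes of a pathway in each library of shNC (blue) and shNUF2 (orange), with 1 point per library, lines for the mean and bars for the SD of 3 libraries. The ratio of CPS1 to ASS1 lies at 0.144 and 0.145 in the groups, whereas the ratio of ASS1 to ASL lies at 104 in shNC and 29.7 in shNUF2.

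The enzymes were then set against 45 related genes in 6 lists, of which 34 had enough counts to be tested. These lists were chosen with earlier results of the same libraries known, so that their counts of calls and adjusted p-values are a description. By the edgeR quasi-likelihood test (Benjamini-Hochberg) over all genes, 13 of the 34 rose and 16 fell with shNUF2. Their median log2 fold change was -0.07, against -0.01 over all genes tested. SLC7A2, GAMT and GLUL, which are among these calls, lost significance when a single library was left out. Over all 12874 genes tested, 33.9% rose and 33.8% fell by the same rule.

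Around the urea cycle, 3 of the 4 genes tested of 6 listed fell and 0 rose. SLC25A13, a mitochondrial carrier that exports aspartate, had a log2 fold change of -0.91 (standard error 0.07), the lowest of the list. SLC25A15, which carries ornithine and citrulline, was at -0.70 (0.14) and the aspartate carrier SLC25A12 at -0.41 (0.09). The adjusted p of these 3 genes ranged from 1.04e-11 to 0.00018 in the edgeR quasi-likelihood test (Benjamini-Hochberg). SLC25A15 and SLC25A12 were named after their values were seen. NAGS, which makes the activator of CPS1, counted 35, 30 and 50 reads under shNC, against 35, 66 and 50 under shNUF2, and its log2 fold change of 0.59 (0.28) did not pass (adjusted p = 0.0598, same test). ARG1, the cytosolic arginase and paralog of ARG2, counted 11, 10 and 6 reads under shNC, against 2, 8 and 5 under shNUF2 and was not tested.

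Among the other proline enzymes, 3 of 4 tested fell and 1 rose. PYCR3, a paralog of PYCR1, had a log2 fold change of -0.63 (standard error 0.12). ALDH4A1, which follows PRODH in proline breakdown, had the lowest value at -0.95 (0.13). PEPD, which frees proline from dipeptides, was the highest at 0.35 (0.06). The adjusted p of these 3 genes ranged from 2.21e-07 to 7.10e-05 in the edgeR quasi-likelihood test (Benjamini-Hochberg). PRODH2, the paralog of PRODH, had at most 2 reads in any library.

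For the uptake and use of arginine, 3 of 7 genes tested rose and 4 fell, of 11 listed. NOS3, which makes nitric oxide from arginine, counted 5, 6 and 3 reads under shNC, against 33, 38 and 42 under shNUF2. The fitted log2 fold change was 3.16 (standard error 0.41), the highest of the list, and the ratio of summed reads was 9.22 (95% exact binomial interval 5.27 to 17.4, counting error only). AGMAT, annotated as an agmatinase, was the lowest with a log2 fold change of -1.11 (0.12, adjusted p = 3.02e-09 in edgeR's quasi-likelihood test). In all 3 shNC libraries NOS3 was under the minimum of 0.682 CPM used for testing, at 0.174 to 0.375 CPM, so that NOS3, counted here among the genes that rose, was tested only through the group in which it was higher. With limma on log2 of FPKM plus 0.1 or 1 its difference was 1.87 or 0.47. SLC7A3 and NOS2 had 0 reads in every library.

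Polyamines are made from the ornithine that arginase releases. Of the 10 genes tested of 12 listed, 7 rose and 0 fell. Over all genes tested, 33.9% rose and 33.8% fell. The list holds genes of both polyamine synthesis and turnover, and the count does not separate them. SMS, the spermine synthase, counted 6393, 6453 and 7269 reads under shNC, against 16408, 14818 and 16909 under shNUF2. This was a log2 difference of 1.45 (standard error 0.05). SMOX, which oxidises spermine, was at 1.38 (0.09). Their adjusted p was 6.26e-20 and 4.02e-13 in edgeR's quasi-likelihood test, and these 2 genes were the DEGs of the list. SRM, the spermidine synthase, had the lowest log2 fold change at -0.05 (0.07, adjusted p = 0.525 in the same edgeR test).

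In the supply of glutamate, glutamine and aspartate, 2 of 6 genes tested rose and 3 fell. GOT1, the cytosolic aspartate aminotransferase, had a log2 fold change of -1.06 (standard error 0.08, adjusted p = 1.84e-11 in edgeR's quasi-likelihood test). ASNS, which uses aspartate to make asparagine and was known to differ from earlier results, counted 71, 66 and 79 reads under shNC, against 3, 1 and 3 under shNUF2. The ratio of its summed reads was 27.0-fold lower with shNUF2 (95% exact binomial interval 12.9 to 68.0, counting error only). The fitted log2 fold change of ASNS was -4.69 (standard error 0.40), against -0.91 with limma on log2 of FPKM plus 1. All 3 shNUF2 libraries were under the minimum for testing, so that ASNS, counted here among the genes that fell, was tested only through the group in which it was higher. All 3 genes of pyrimidine synthesis, which starts from carbamoyl phosphate made in the cytosol, fell. DHODH was at -0.70 (0.11), CAD at -0.60 (0.05) and UMPS at -0.46 (0.07), with adjusted p from 1.65e-10 to 2.19e-06 in the same edgeR test. These 3 genes were named after their values were seen.

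**Figure D4:**
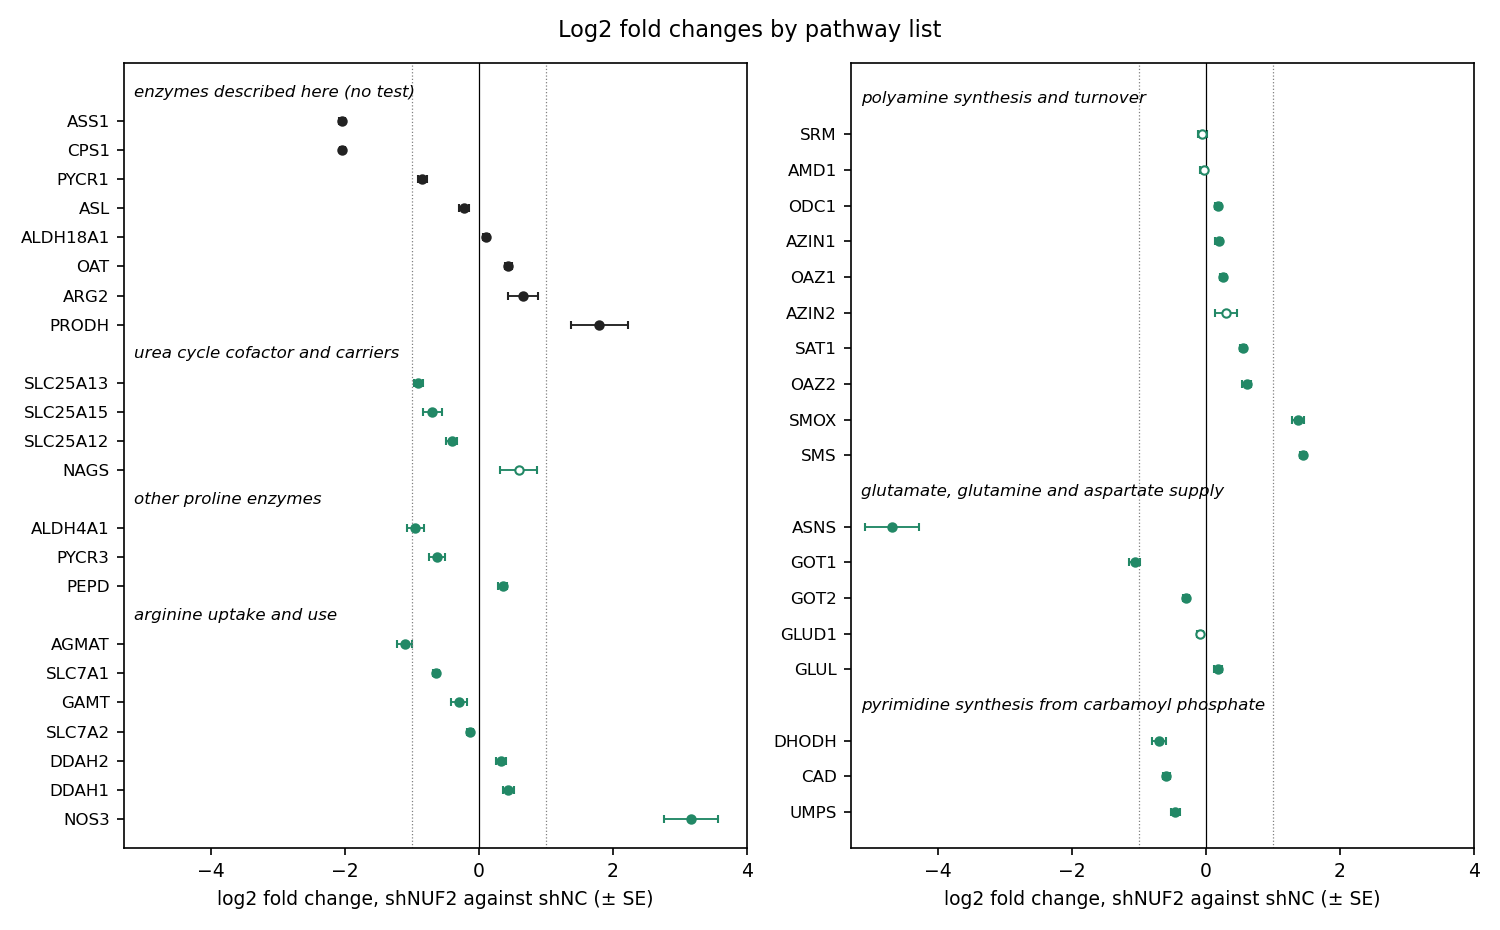
Log2 fold changes of shNUF2 against shNC with standard errors for the 8 enzymes that entered the fit (black, no test) and for 32 of the 34 related genes tested (green, open where the adjusted p was not under 0.05), grouped by list, with dotted lines at -1 and 1. The values run from -4.69 for ASNS to 3.16 for NOS3, and CPS1 and ASS1 lie side by side at -2.04 and -2.05.

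Since CPS1 is best known from hepatocytes, markers of other cell types were read in the same libraries. Of 7 hepatocyte markers, ALB, APOA1 and TTR had 0 reads in every library and HNF4A had 1066 to 1218 reads with shNC and 600 to 648 reads with shNUF2. The summed CPM of the hepatocyte markers lay from 66.7 to 79.6 with shNC and from 44.3 to 48.6 with shNUF2, nearly all of it HNF4A. SERPINA1 went the other way, with 0, 0 and 1 reads under shNC against 8, 24 and 13 under shNUF2, as did TAT and F2, which had at most 5 reads. That of 5 fibroblast markers lay from 84.0 to 90.5 and from 68.6 to 75.2, most of it COL1A1, and COL1A2 and LUM had at most 2 reads. DCN went the other way, with means of 3.66 and 8.48 CPM and no overlap between the groups. That of 5 leukocyte markers lay from 1.45 to 2.38 and from 4.01 to 6.46, and CD3E had at most 1 read. The part of these differences in the values of CPS1 and ASS1 was not tested. In such bulk libraries fewer cells with a transcript and less transcript per cell cannot be told apart.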

How the data were processed

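RNA-seq libraries of OVCAR3 cells with shNC or shNUF2 (3 each) were grouped by the sample labels. The authors trimmed reads with cutadapt, aligned them with HISAT to GRCh38.p13 and counted them per gene with HTSeq, as named in the submitters' processing notes without versions or settings, and deposited the read counts without normalization. The deposited FPKM values equal the count divided by gene length and library total, to a relative deviation of 2.71e-07. The test was run in R 4.3.3 with edgeR 4.0.16 (filterByExpr, TMM, quasi-likelihood test, all 6 libraries, no covariate), with Benjamini-Hochberg adjustment over the 12874 genes tested. The DEG limits were those of the study's methods, read on the log2 scale and with the adjusted p. Standard errors were obtained from the log2 fold change and the root of its F statistic. Alternatives used DESeq2 1.42.0 and limma 3.58.1 (log2 of FPKM plus 1 or 0.1). Each test was also run on simulated data, in which all genes had the same noise beyond sampling. Noise that differs between genes was not covered by this.

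The enzymes and related lists were chosen with earlier results of these data known. Named genes were the 9 enzymes, NUF2, and in each list the DEGs, the highest and lowest log2 fold change and paralogs of the enzymes. Of these, 2 genes are not reported here. SLC25A12, SLC25A15, DHODH, CAD, UMPS and genes that overlap or copy an enzyme were named after their values were seen. Overlaps, shared 50-base stretches and pseudogenes were taken from GENCODE release 29, and promoters from RefSeq, with Python 3.11.15 and pandas 2.3.3. Motifs were searched on both strands, overlapping matches included. Total counts of 13057534 to 16995452 set the precision, and genes with few reads are limited by counting error.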

Additional observations from a re-analysis of the deposited data

How the results depend on the processing

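Over 15 alternatives (14 for PRODH), the log2 fold changes of CPS1 (-2.08 to -2.02), ASS1 (-2.08 to -2.03), PYCR1 (-0.88 to -0.82), ASL (-0.30 to -0.15), ARG2 (0.40 to 0.87), OAT (0.38 to 0.46) and ALDH18A1 (0.06 to 0.12) kept their direction. Without shNUF2 replicate 3, ASL was -0.15 (standard error 0.08), and without shNUF2 replicate 1, ARG2 was 0.44 (0.25). PRODH ranged from 0.21 (limma on log2 of FPKM plus 1) to 2.46 (without shNC replicate 3). With at least 1 CPM in every library, PRODH did not pass the filter, so that 0 enzymes had a log2 fold change above 1 instead of 1, and 756 of all genes were called higher, against 1204. NOS3 and ASNS did not pass this filter either, and 2 related genes were past the DEG limits on each side instead of 3. With limma on log2 of FPKM plus 1, 0 enzymes had a log2 fold change above 1. In that setting 2 related genes were past the DEG limits on the higher side and 1 on the lower side, instead of 3 each. Of all genes, 430 and 206 were called higher and lower, against 1204 and 533, since the pseudocount shrinks changes of low genes. With single libraries left out, SRM ranged from -0.13 to 0.0055, and it turned positive without shNUF2 replicate 1. SLC7A2 lost its call without shNUF2 replicate 2 (-0.10), GLUL without shNC replicate 3 (0.12), and GAMT without shNC replicate 2 (-0.28), shNUF2 replicate 1 (-0.21) or shNUF2 replicate 2 (-0.23). NAGS gained one without shNC replicate 3 (0.75) or shNUF2 replicate 1 (0.78). Without shNUF2 replicate 2 (0.29) or shNC replicate 2 (0.44), NAGS was weaker and not called. Calls of GAMT, GLUL, NAGS and GLUD1 also depended on the tool, filter or scaling. The replicate block left 13 related genes higher and 16 lower and changed no call among the related genes. The replicate numbers do not pair the libraries, with correlations of same-numbered deviations of 0.03, 0.01 and -0.04, and 1 of 3 numbers matched its own best. Depth limits PRODH, ARG2, NOS3 and ASNS, and OTC was not detected.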

Other observations

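The deposited table also pairs genes with GO terms, and 10 genes outside the lists above are annotated to 10 terms of the urea cycle and of arginine and proline metabolism. They were read after the other values had been seen, so that their adjusted p-values are a description. Of the 10 genes, 6 had enough counts to be tested, and 2 were higher, 2 lower and 2 not called with shNUF2. Over all genes tested, 33.9% were higher and 33.8% lower by the same rule. CEBPA, a transcription factor annotated to the urea cycle, counted 210, 284 and 306 reads under shNC, against 75, 72 and 113 under shNUF2, a log2 fold change of -1.43 (standard error 0.14, adjusted p = 1.63e-09 in the edgeR quasi-likelihood test (Benjamini-Hochberg)). NMRAL1, a protein annotated to the same term, was at -0.74 (0.06, adjusted p = 6.40e-11 in the same edgeR test). FAH, annotated to arginine breakdown, was at 0.45 (0.11, adjusted p = 0.000561 in the same edgeR test). The higher gene beside FAH is the scaffold copy of proline dehydrogenase 1 at 1.31 (0.23). This copy was singled out after its values were seen, so that no p-value is given for it. SLC39A8 and NOXRED1 did not pass, at 0.01 (0.05) and -0.16 (0.44).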
